A study of Drosophila melanogaster with 6 samples.

Results

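The glycolytic enzymes described here are 10 Drosophila genes, taken by their FlyBase symbols: Hex-A, Pgi, Pfk, Ald1, Tpi, Gapdh1, Gapdh2, Pgk, Eno and PyK. They were 10 of the 17453 genes listed for each library, and all 10 had enough counts to be tested. Their RNA was measured in 3 anti-GFP RNA immunoprecipitates (RIP) and 3 inputs, which are portions of head lysate set aside before the precipitation. Both groups came from adult heads, males and females pooled, of y1 w*; P{PTT-GA}Zn72D[CA07703] flies, in which a GFP protein trap lies in Zn72D, the gene of an RNA-binding zinc finger protein. Rearing was at 25 C under a light and dark cycle of 12 hours each, and the inputs carried the same trap as the RIP libraries. A precipitate from flies without GFP was not analysed here, so RNA held by the tagged protein and RNA held by the antibody or the beads cannot be told apart.

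Glycolysis splits glucose into pyruvate. Its upper steps spend ATP to phosphorylate the sugar and cut it into triose phosphates, and its lower steps oxidise the triose phosphates and return ATP. Neurons, glia, photoreceptors and muscle of the head all use the pathway, and several of its RNAs are abundant in most animal cells.

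The libraries held 34401553 to 38331703 expected counts, apart from RIP replicate 3 with 28070655. rRNA took 4.73%, 5.54% and 9.39% of the counts in the RIP libraries, against 82.95%, 78.05% and 78.65% in the inputs, so 25434735 to 36377598 counts lay outside rRNA in RIP and 5864723 to 8182107 in input. Replicate 3 stood apart in both groups. The 7 fat body markers summed to 6926 CPM (TMM-scaled CPM) in RIP replicate 3 and to 3734 and 3433 CPM in RIP replicates 1 and 2, and to 7092 CPM in input replicate 3 and to 3401 and 3092 CPM in input replicates 1 and 2. Of the other markers of head cell types, 7 of 9 for neurons were called higher in RIP (20.2% of all genes tested were called higher and 17.0% lower), with sums of 5351 to 7252 CPM in RIP and 2233 to 2933 CPM in input. The 13 muscle markers summed to 8713 to 9711 CPM in RIP and 8520 to 10211 CPM in input, with 2 higher and 6 lower in RIP. The 9 photoreceptor markers summed to 8424 to 8827 CPM in RIP and 9655 to 10810 CPM in input, with 4 lower in RIP. The 8 glial markers summed to 572 to 872 CPM in RIP and 639 to 997 CPM in input, with 1 lower in RIP. These calls changed when the trend of fold change with transcript length was removed. Then 5 neuron markers were higher and 0 lower. For muscle 0 were higher and 5 lower, and for photoreceptors 0 and 7. Glia and fat body each had 0 higher and 1 lower. Of all genes, 10.7% were then called higher and 10.5% lower. No marker was at 0 in either group, and the part of these cell types in the results below was not tested. In RNA of whole heads, fewer cells of a type and less RNA per cell cannot be told apart.

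The first comparison asked how much of each enzyme's RNA was recovered in RIP relative to input. Hex-A was higher in RIP and the other 9 enzymes were lower in RIP under TMM scaling, a split in which all 9 turn to higher when counts are divided by library size alone (8 of the 10 called higher and 0 lower, beside 80.4% and 1.48% of all genes). Under TMM scaling, 20.2% of the 11670 genes tested were called higher in RIP and 17.0% were called lower (edgeR's quasi-likelihood test, Benjamini-Hochberg adjusted p under 0.05). The median log2 fold change, RIP over input, was -0.88 over the 10 enzymes and 0.06 over all genes tested. Library size alone moves the median of all genes to 1.90 and that of the enzymes to 0.96, a shift that is alike for all genes by construction. On log2(TPM + 1) as deposited, the enzyme median was -0.059 from that of all genes, against -0.93 under TMM scaling. On TPM rescaled without rRNA this distance was -0.71 with 1 added before the log and -0.92 with 0.1 added. In both of these rescaled fits 6 enzymes were called higher in RIP and 1 lower. Of all genes, 8066 were higher and 318 lower with 1 added, and 8001 and 317 with 0.1 added. All fold changes that follow are therefore relative to the bulk of genes and say nothing of absolute recovery.

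**Figure D1:**
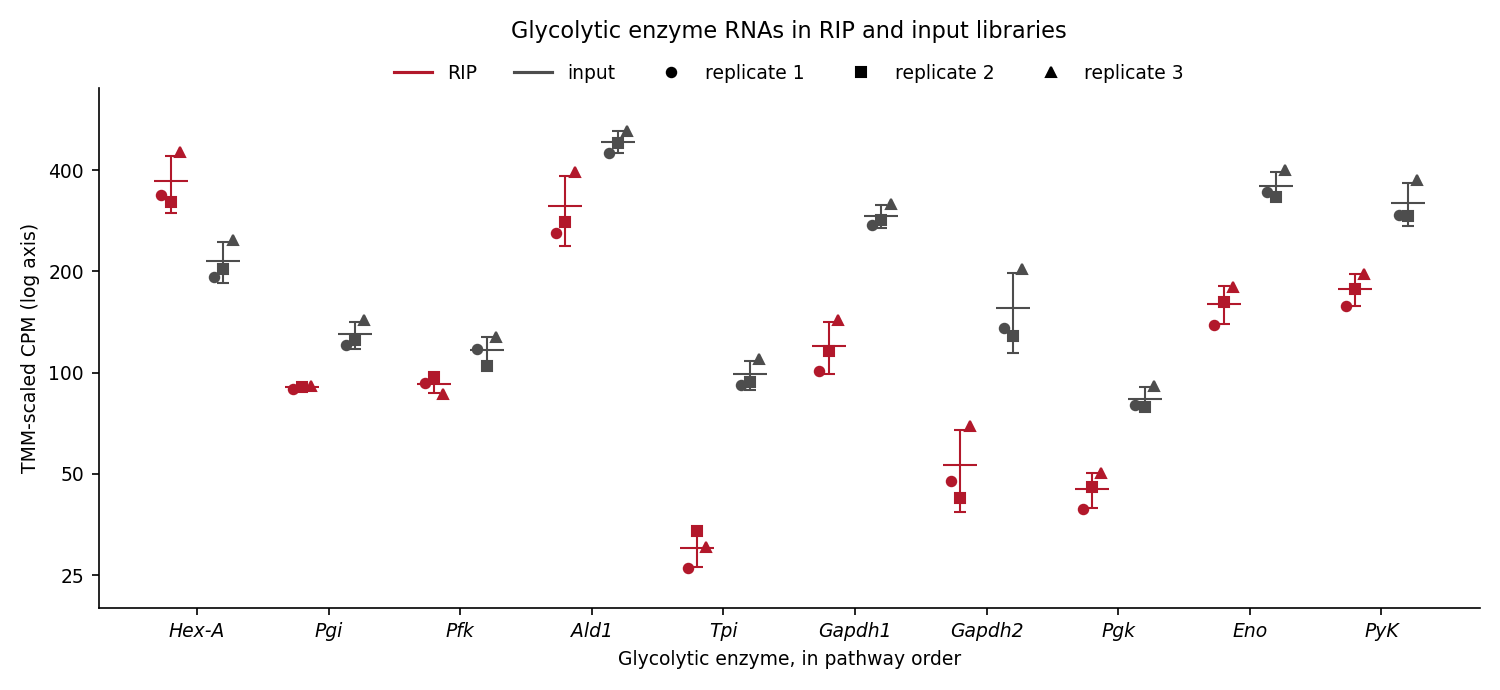
TMM-scaled CPM (log axis) of the 10 enzymes in pathway order, with a point for each library, a horizontal line for the mean and bars of 1 SD (n = 3 each). Under this scaling the RIP values of Hex-A lie above its input values and those of the other 9 enzymes lie below, whereas library size alone puts all 10 higher in RIP.

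Hex-A encodes a hexokinase, which phosphorylates glucose as it enters the pathway. It is a gene of a single exon at X:9585675-9589813 on the plus strand (dm6). Hex-A had 336, 322 and 452 CPM in the RIP libraries, against 192, 203 and 249 CPM in the inputs. The groups did not overlap, and replicate 3 was the highest library of each. The log2 fold change was 0.79 ± 0.17 (SE, n = 3 each), a 1.73-fold higher level in RIP, with an adjusted p of 0.0137 in edgeR. Within the 3 numbered pairs it lay between 0.67 and 0.86. This fold change exceeded that of 86.1% of all genes tested. The call was lost without input replicate 1 (log2 fold change 0.72, adjusted p = 0.0632) or input replicate 2 (0.76, 0.0670) and held without input replicate 3 (0.93, 0.0146), and over all 22 alternatives it ran from 5.85e-08 to 0.214. Without RIP replicate 3 the log2 fold change was 0.51 (adjusted p = 0.00698), and without both replicate 3 libraries it was 0.57, with an adjusted p of 4.64e-05.

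Pgi and Pfk act next: Pgi turns glucose phosphate into fructose phosphate, and Pfk adds the further phosphate that commits the sugar to glycolysis. Both genes lie on 2R, Pgi at 8910900-8914069 on the minus strand and Pfk at 10109740-10117457 on the plus strand. Pgi had 89.2, 90.4 and 91.5 CPM in RIP, against 121, 125 and 143 CPM in input. Its RIP libraries were the closest to each other of any enzyme, and it gave a log2 fold change of -0.52 ± 0.09 (SE, n = 3 each; edgeR, adjusted p = 0.00567). Pfk had 93.3, 97.3 and 86.5 CPM in RIP, against 118, 105 and 127 CPM in input. The groups were close but did not overlap. Pfk had the smallest shift of the 10 in either direction, at -0.34 ± 0.10 on the log2 scale (edgeR, adjusted p = 0.0411). Its call was lost without input replicate 1 (adjusted p = 0.128), input replicate 2 (0.0559) or input replicate 3 (0.0937). Over the 22 alternatives the adjusted p ran from 3.91e-06 to 0.128, but 4 of them put Pfk higher in RIP. The lowest value came from such a fit, limma on log2(TPM + 1) as deposited, with a log2 fold change of 2.98.

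Ald1, an aldolase, cuts the sugar into triose phosphates, and Tpi interconverts these. Ald1 lies at 3R:26254069-26261591 and Tpi at 3R:30132981-30134599, both on the minus strand. Ald1 had 259, 281 and 395 CPM in RIP, against 450, 483 and 524 CPM in input. RIP replicate 3 was the nearest to the inputs, and the fold change on the log2 scale was -0.64 ± 0.18 (SE, n = 3 each; edgeR, adjusted p = 0.0325). When single libraries were left out, the Ald1 call was the least firm of the 10. It was lost without RIP replicate 1 (adjusted p = 0.118), RIP replicate 2 (0.152), input replicate 1 (0.0807), input replicate 2 (0.111) or input replicate 3 (0.0967). It was kept without RIP replicate 3, where the log2 fold change was -0.96 and the adjusted p 0.000882. With the replicate number as a block in the fit it was firm (log2 fold change -0.66, edgeR adjusted p = 2.73e-06). So it was without both replicate 3 libraries (-0.95, 2.24e-06). In these fits Pfk had the highest adjusted p of the 10, at 0.00250 and 0.00229. The adjusted p ran from 3.41e-07 to 0.152 over the 22 alternatives, of which 4 put Ald1 higher in RIP. Tpi had 26.3, 33.9 and 30.4 CPM in RIP, against 92.1, 94.1 and 110.0 CPM in input. It had the lowest fold change of the 10: the input mean was 3.27 times the RIP mean, a log2 value of -1.71 ± 0.13 (SE; edgeR, adjusted p = 0.000415). Only 4.74% of all genes tested had a lower fold change than Tpi.

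Gapdh1 and Gapdh2 encode glyceraldehyde phosphate dehydrogenases, which catalyse the oxidation step of the pathway. Gapdh1 lies at 2R:7791901-7793380 on the minus strand and Gapdh2 at X:15868145-15869661 on the plus strand. Gapdh1 had 101, 116 and 143 CPM in RIP, against 274, 284 and 317 CPM in input. Gapdh2 had 47.5, 42.4 and 69.6 CPM in RIP, against 135, 128 and 204 CPM in input. In both genes the groups did not overlap and replicate 3 was the highest library of each group. The log2 fold change was -1.28 ± 0.15 for Gapdh1 (SE, n = 3 each; edgeR, adjusted p = 0.00137) and -1.55 ± 0.26 for Gapdh2 (adjusted p = 0.005001). The SE of Gapdh2 was the widest of the 10, yet its 3 numbered pairs lay close together, between -1.60 and -1.51. RSEM divides reads that match both genes between them. It gave a posterior SD of 0 for the counts of all 10 enzymes in every library, so this value says nothing particular to the pair.

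The lower steps end with Pgk, which makes ATP from bisphosphoglycerate, Eno, which makes phosphoenolpyruvate, and PyK, which makes ATP and pyruvate from it. Pgk lies at 2L:2746880-2753068 and Eno at 2L:1724768-1729636, both on the minus strand, and PyK lies at 3R:22367536-22372746 on the plus strand. Pgk had 39.3, 45.6 and 50.2 CPM in RIP, against 80.3, 79.3 and 91.4 CPM in input. Eno had 138, 162 and 180 CPM in RIP, against 343, 333 and 400 CPM in input. PyK had 158, 177 and 196 CPM in RIP, against 294, 292 and 374 CPM in input. None of the 3 overlapped between groups, and the distance was widest for Eno. The log2 fold changes were -0.89 ± 0.12 for Pgk (SE, n = 3 each; edgeR, adjusted p = 0.00214), -1.16 ± 0.13 for Eno (0.00136) and -0.86 ± 0.14 for PyK (0.00457).

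Part of the exon sequence of 3 enzymes lies under a gene on the opposite strand, and the strand setting of the counting is not given in the sources used here. The shared exon bases were 338 of 3809 for Ald1 with asRNA:CR44321, 65 of 2112 for Pgk with Cwc25 and 362 of 3718 for Eno with Rrp40. Without strand, reads from these bases cannot be assigned to a gene with certainty.

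Every enzyme separated the groups completely under TMM scaling, Hex-A with all 3 RIP libraries above and the other 9 with all 3 below, a direction that library size alone turns to higher in RIP for those 9. Of all genes tested, 26.5% had all 3 RIP values above the inputs and 24.3% had all 3 below. Tpi, Gapdh1, Gapdh2 and Eno were at least 2-fold lower in RIP, a size and call that 10.2% of all genes met. With the replicate number as a block, the same enzymes were called, 1 higher and 9 lower, beside 32.7% of all genes called higher and 27.7% called lower. Without both replicate 3 libraries they were again 1 higher and 9 lower, beside 24.7% and 28.6% of all genes. With rRNA genes left out of the fit they were also 1 higher and 9 lower, beside 15.7% and 21.3% of all genes.

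The sum of the 10 enzymes gives the set as a share of each library. It was 0.269%, 0.291% and 0.317% of the counts outside rRNA in RIP, against 0.589%, 0.589% and 0.603% in input. The RIP share averaged 0.292% ± 0.024 and the input share 0.594% ± 0.008 (SD, n = 3 each). The difference was -0.301 percentage points, with an exact two-sided permutation p of 0.1, the smallest that 3 libraries against 3 allow. Over all counts, rRNA included, the direction reversed, with 0.273% in RIP and 0.119% in input.

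The balance among the enzymes does not depend on the scaling between libraries, and was taken as each enzyme's count relative to the geometric mean of the 10 in the same library. Each enzyme is part of that mean, so the 10 ratios are tied by construction. A gain of Hex-A lowers the ratios of the others. Hex-A stood out: its log2 ratio was 1.78, 1.61 and 1.88 in RIP, against 0.10, 0.18 and 0.20 in input, a difference of 1.60. Of the 10 enzymes' counts, Hex-A took 26.1%, 23.6% and 26.7% in RIP, against 9.16%, 9.53% and 9.79% in input. Pfk and Pgi also gained on the set, by 0.49 and 0.30 on the log2 scale. Tpi, Gapdh2, Gapdh1 and Eno lost ground, with differences of -0.89, -0.73, -0.47 and -0.35. These 7 enzymes did not overlap between groups, each at the smallest exact two-sided permutation p of 0.1 (0.143 after Benjamini-Hochberg adjustment over the 10). By the same ratio, 55.5% of all genes tested had all 3 RIP values above the inputs and 7.39% had all 3 below. Ald1, PyK and Pgk overlapped, with differences of 0.16, -0.03 and -0.08, and those of Ald1 and PyK changed sign, to -0.03 and 0.01, when deposited TPM replaced counts.

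**Figure D2:**
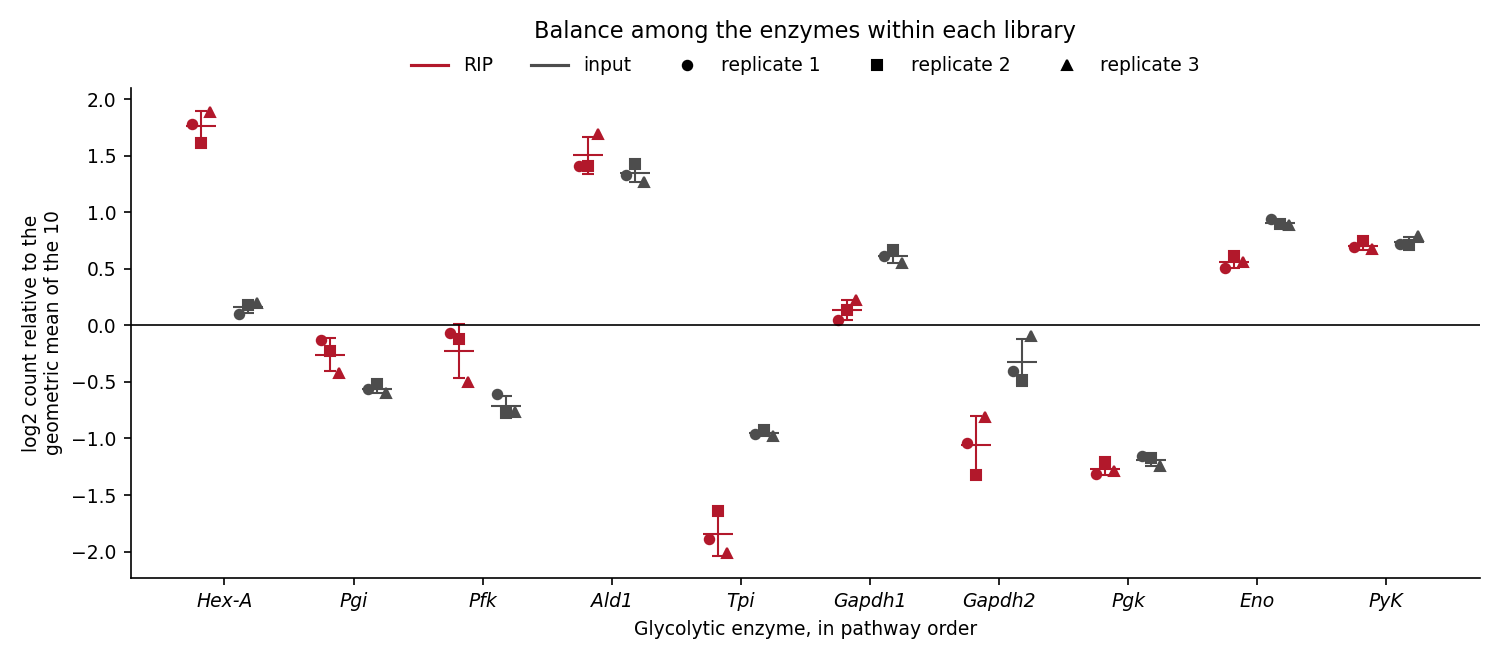
Log2 count of each enzyme relative to the geometric mean of the 10 in the same library, in pathway order, with a point for each library, a line for the mean and bars of 1 SD (n = 3 each). Hex-A lies near 1.76 in RIP and 0.16 in input, and Tpi near -1.85 in RIP and -0.96 in input.

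The Gapdh pair was compared directly. Gapdh2 counts were 0.470, 0.365 and 0.487 of Gapdh1 counts in RIP, against 0.494, 0.451 and 0.642 in input. The groups overlapped. The means were 0.441 ± 0.066 in RIP and 0.529 ± 0.100 in input (SD, n = 3 each), a log2 difference of -0.26 with an exact two-sided permutation p of 0.4. The ratio was lower in RIP in each of the 3 numbered pairs, with an exact two-sided paired permutation p of 0.25, the smallest that 3 pairs allow.

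Levels between enzymes were compared per length, as TPM rescaled over genes other than rRNA. This scale has no TMM factors, and on it most enzymes were higher in RIP than in input. With 1 added before the log, 6 were called higher and 1 lower (limma), beside 8066 and 318 of the 11670 genes. The values below therefore serve to order enzymes within a group. The order in RIP was Ald1 (901 TPM), Gapdh1 (613), Eno (563), PyK (563), Hex-A (560.3), Gapdh2 (259), Pgi (248), Pgk (197), Tpi (178) and Pfk (166). In input it was Ald1 (649.6 TPM), Gapdh1 (567), Eno (506), PyK (395), Gapdh2 (286), Tpi (224), Hex-A (148), Pgk (141), Pgi (138) and Pfk (81.5). Aldolase headed and phosphofructokinase closed both orders. Hex-A had rank 5 in RIP, where its values overlapped those of PyK, and rank 7 in input, where they overlapped those of Pgk. Of neighbours in RIP, Ald1 and Gapdh1, Hex-A and Gapdh2, and Pgi and Pgk did not overlap over the 3 libraries, and the other neighbours did. In input the overlapping neighbours were Ald1 and Gapdh1, Hex-A and Pgk, and Pgk and Pgi. All 10 enzymes lay above 90.6% of tested genes in RIP and above 93.4% in input, Pfk being the lowest of the set in both.

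The fold changes of the enzymes followed the length of their transcripts. Hex-A, with an isoform-weighted mean length of 4008 bases in RIP and 3493 in input, had the longest RNA and the highest fold change, and Tpi, with 1183 bases in RIP and 1178 in input, had the shortest RNA and the lowest. Across the 10 enzymes, Pearson's r between log2 length and log2 fold change was 0.92 and Spearman's rho 0.98, and without Hex-A they were 0.91 and 0.97. Over all 11670 genes tested, r was 0.61 and rho 0.64. These are descriptions across genes of the same 6 libraries, which share their depth and scaling, and genes are not independent replicates. Mean fragment length also differed between the groups, with 195, 195 and 207 bases in RIP and 172, 171 and 162 bases in input, and its part in this relation was not tested.

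**Figure D3:**
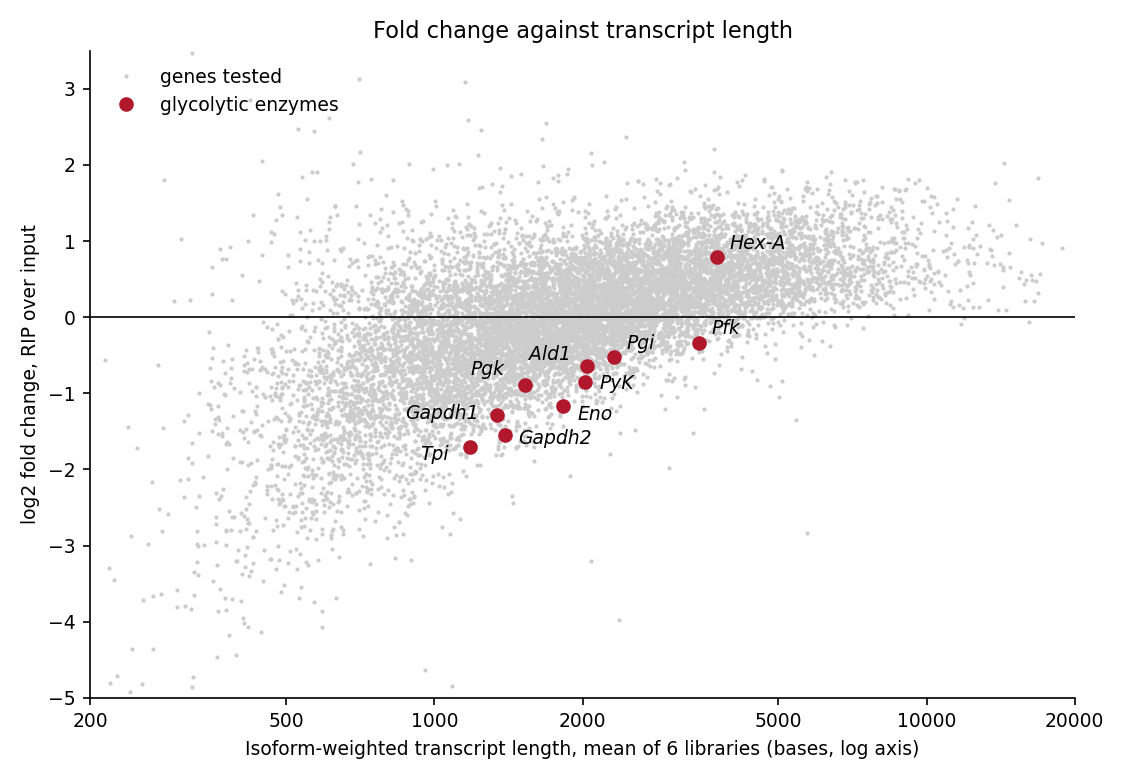
Log2 fold change, RIP over input under TMM scaling, against isoform-weighted transcript length in bases (log axis, mean of the 6 libraries) for tested genes in grey and the 10 enzymes in red. Tpi is at the short end and Hex-A at the long end of the enzymes, the other 9 lie below 0 (library size alone turns them above it), and 95 of the tested genes fall outside the axes.

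When the length trend was removed from each library, Hex-A alone still lay above 0, but some calls changed. Hex-A was no longer called, with a log2 fold change of 0.28 ± 0.14 (SE, n = 3 each; edgeR, adjusted p = 0.214), which 64.6% of genes lay below. Of the other 9 enzymes, 8 were still called lower, beside 10.5% of all genes called lower and 10.7% called higher. The exception was Ald1, with a log2 fold change of -0.62 and an adjusted p of 0.0678. Pfk, the longest of these RNAs after Hex-A, moved the most away from 0, to a log2 fold change of -0.78 ± 0.08 (adjusted p = 0.00461). Tpi, Gapdh2 and Eno were the lowest, at -1.20, -1.18 and -1.05. The median of the 10 was -0.81, against 0.07 over all genes. With the replicate number as a block in the same fit, Hex-A was called higher (log2 fold change 0.27, edgeR adjusted p = 0.0169) and the other 9 were called lower, beside 28.1% of all genes called higher and 22.7% called lower.

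**Figure D4:**
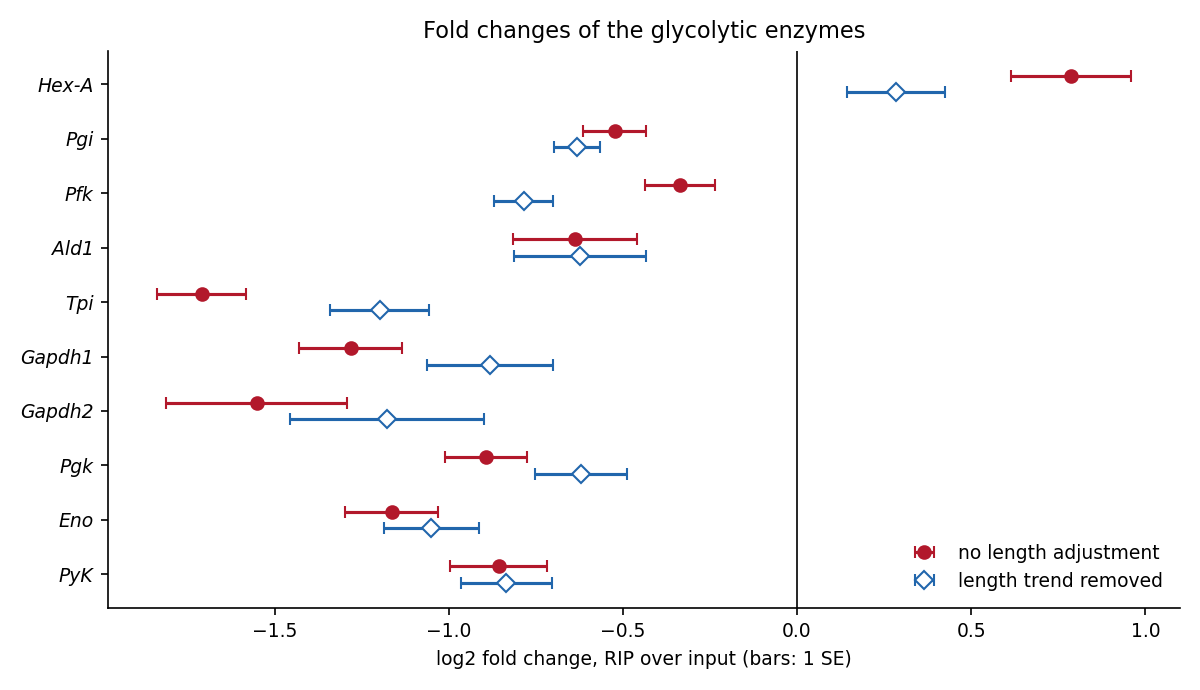
Log2 fold change, RIP over input, of each enzyme under TMM scaling without length adjustment (filled circles) and with the length trend removed (open diamonds), bars 1 SE (n = 3 each). Hex-A moves from 0.79 to 0.28 between the fits and Pfk from -0.34 to -0.78, and the 9 enzymes other than Hex-A lie below 0 in both, a side that library size alone reverses.

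The deposited length of a gene is weighted by the isoforms that RSEM assigned to it, so it also shows which transcripts were recovered. Hex-A RNA was longer in RIP: the weighted length was 4018, 3968 and 4038 bases, against 3437, 3554 and 3488 bases in input. The 3 annotated Hex-A transcripts have 2 lengths, 2512 and 4139 bases, and the longer has a 3′ untranslated region of 1969 bases where the shorter ones have 557, beside a 5′ leader of 823 bases where those have 329 and 608. The weighted length puts the longer transcript at 92.6%, 89.5% and 93.8% of Hex-A RNA in RIP, against 56.9%, 64.0% and 60.0% in input. The groups did not overlap (difference 31.7 percentage points, exact two-sided permutation p = 0.1, the smallest possible). Of 6558 genes with 2 or more transcripts, 26.2% had a longer weighted length in all 3 RIP libraries and 11.2% had a shorter one, and the shift of Hex-A, 515 bases, exceeded that of 97.1% of them.

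The Gapdh genes moved the other way. The longer Gapdh2 transcript, of 1443 bases against 1377, differs in its 5′ leader of 117 bases against 51. It made up 1.85%, 0% and 2.83% in RIP, against 43.6%, 44.8% and 47.5% in input. The longer Gapdh1 transcript, of 1480 bases against 1330, also carries a longer 5′ leader, of 260 bases against 110. It made up 0.247%, 0.113% and 0% in RIP, against 11.4%, 14.7% and 11.5% in input. In both paralogs the form with the longer leader was thus near 0 in RIP and a larger share in input. The longer PyK transcript was lower in RIP by a small margin, at 40.9% ± 1.51 in RIP and 44.3% ± 1.37 in input (SD, n = 3 each). None of these 3 genes overlapped between groups, each at the smallest exact two-sided permutation p of 0.1. Of the 6558 genes with 2 or more transcripts, 11.2% likewise had a shorter weighted length in all 3 RIP libraries. The length difference, RIP minus input, was lower than that of Gapdh2 in 14.3% of those genes, of Gapdh1 in 19.0% and of PyK in 29.5%.

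**Figure D5:**
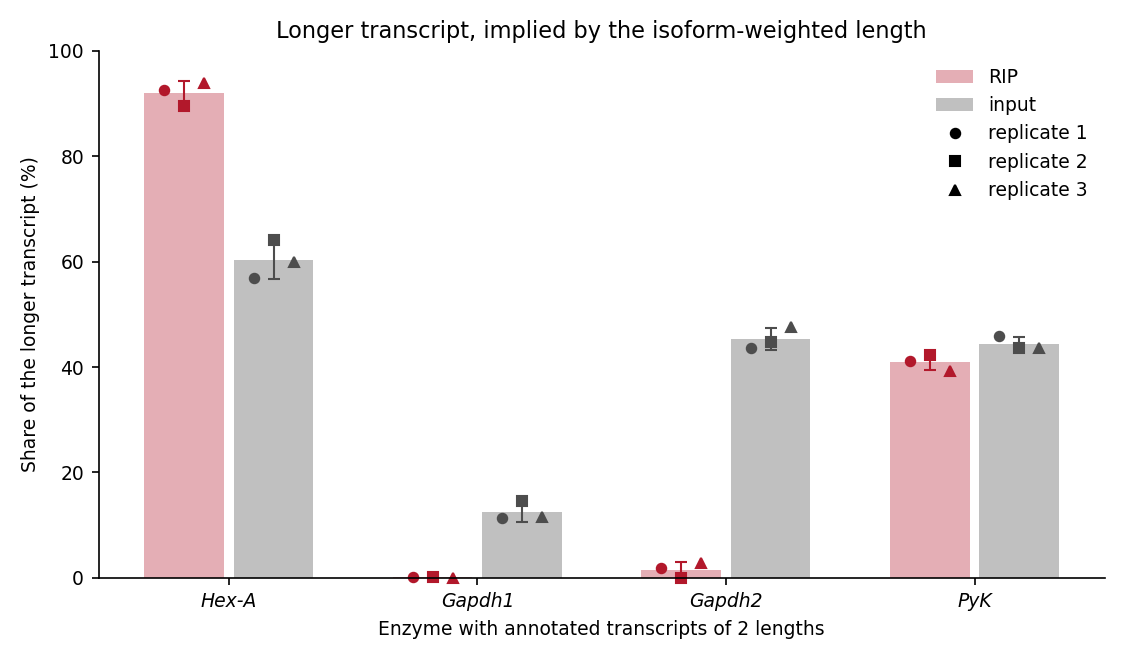
Share of the longer annotated transcript (percent), as implied by the isoform-weighted length, for the 4 enzymes whose transcripts have 2 lengths, with bars from 0 for the mean, points for libraries and error bars of 1 SD (n = 3 each). The longer form of Hex-A is near 92.0% in RIP and 60.3% in input, and that of Gapdh2 near 1.56% in RIP and 45.3% in input.

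These shares are arithmetic on RSEM's estimates and carry its uncertainty, since the forms share most of their bases and the shares rest on reads from the part that differs. Fragments were also longer in RIP than in input, and the part of fragment length in the shares was not tested. Among the other enzymes, Ald1 (2192 bases in RIP, 1889 in input) and Eno (1847 in RIP, 1795 in input) had longer weighted lengths in all 3 RIP libraries. So had 26.2% of the genes with 2 or more transcripts. The shift of Ald1 exceeded that of 93.6% of those genes and the shift of Eno that of 74.1%. Pgi, Pfk, Tpi and Pgk overlapped between the groups.

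The genes around the 10 enzymes were read from 4 pathway lists. Of 17 other glycolysis genes, which are isozymes, the remaining step and the branches, 0 were called higher and 4 lower in RIP: Pglym78, Hex-C, Ldh and Gpdh1. Of all genes, 20.2% were called higher and 17.0% lower, so the share lower was near that of all genes. With the replicate block, 8 of the 17 were higher and 4 lower, beside 32.7% and 27.7% of all genes. The count fell to 2 lower without RIP replicate 1, RIP replicate 2 or input replicate 1. It was 4 higher and 5 lower without both replicate 3 libraries, and library size alone gave 11 higher and 1 lower. With the length trend removed, 0 were higher and 2 lower, beside 10.7% and 10.5% of all genes. Adding the block to that fit gave 7 higher and 5 lower, beside 28.1% and 22.7%. Pglym78, the phosphoglycerate mutase between Pgk and Eno, had 14.2, 17.1 and 19.0 CPM in RIP, against 74.0, 69.1 and 93.7 CPM in input. It came to -2.23 ± 0.17 in log2 fold change (SE, n = 3 each; edgeR, adjusted p = 0.000412), lower than that of any of the 10 enzymes. Ldh, which reduces pyruvate to lactate, was scarce, at 0.973, 0.985 and 1.26 CPM in RIP, against 2.25, 2.67 and 2.37 CPM in input. Its log2 fold change was -1.18 ± 0.21 (adjusted p = 0.00639), and with the length trend removed its adjusted p was 0.0550. The range was 2.05e-05 to 0.512 over its 21 alternatives, of which 4 put Ldh higher in RIP. The median log2 fold change of the list was 0.33, against 0.06 over all genes.

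Downstream, 12 of 24 genes of pyruvate dehydrogenase and the TCA cycle were called lower and 0 higher (median log2 fold change -0.43; 18 lower and 2 higher with the block), beside 17.0% of all genes called lower and 20.2% called higher. Without RIP replicate 3, 19 were lower, and without both replicate 3 libraries 20 were lower and 1 higher. Library size alone turned the list to 21 higher and 2 lower. SdhC, a membrane subunit of succinate dehydrogenase, had 4.55, 5.27 and 4.603 CPM in RIP, against 25.7, 26.7 and 28.3 CPM in input, which gave -2.48 ± 0.11 as log2 fold change (SE, n = 3 each; edgeR, adjusted p = 0.000135). SdhB and SdhD, 2 other subunits, stood at -1.95 and -2.39, whereas SdhA was not called (-0.24, adjusted p = 0.0687), and Mdh2, the mitochondrial malate dehydrogenase, at -1.37. Of the 9 genes listed with the pentose phosphate pathway, which branches off after hexokinase, 8 were called lower and 0 higher (median -0.85), again beside 17.0% and 20.2% of all genes. The count was 5 lower without RIP replicate 1, RIP replicate 2 or input replicate 1, and library size alone turned it to 8 higher and 0 lower. The 8 included Zw and Pgd, the dehydrogenases of the pathway, and also Idh and Men, which make NADPH outside it. Idh had 39.7, 38.9 and 41.7 CPM in RIP, against 75.6, 72.8 and 88.9 CPM in input (log2 fold change -0.98 ± 0.10, edgeR adjusted p = 0.000987). With the length trend removed, 10 of the TCA list and 5 of the pentose phosphate list were called lower, beside 10.5% of all genes.

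Of 14 genes of sugar supply, storage and gluconeogenesis, 1 was called higher and 3 lower (median log2 fold change -0.27; 1 higher and 8 lower with the block), beside 20.2% and 17.0% of all genes. Without RIP replicate 3, 8 were lower, without input replicate 2, 2 were lower, and without both replicate 3 libraries 9 were lower. Library size alone gave 14 higher and 0 lower. With the length trend removed, 1 was higher and 5 lower, beside 10.7% and 10.5% of all genes. Adding the block to that fit gave 1 higher and 11 lower, beside 28.1% and 22.7%. The gene called higher was Glut1, a glucose transporter, with 237, 260.3 and 255 CPM in RIP, against 109, 128 and 129 CPM in input. It came to 1.04 ± 0.10 in log2 fold change (SE, n = 3 each; edgeR, adjusted p = 0.000831), and it stayed higher with the length trend removed, at 0.37 (adjusted p = 0.0221). The 3 called lower were AGBE, the glycogen branching enzyme, fbp, the fructose bisphosphatase, and Tret1-1, a trehalose transporter. AGBE had 18.0, 19.2 and 20.2 CPM in RIP, against 32.2, 35.4 and 47.5 CPM in input (log2 fold change -1.004 ± 0.16, edgeR adjusted p = 0.00407). Divided by library size alone, Idh, AGBE and Ldh turn to higher in RIP, while Pglym78 and SdhC stay lower and Glut1 stays higher.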

How the data were processed

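RNA from 3 RIP and 3 input libraries was depleted of rRNA and sequenced, per the labels' protocols. Reads went through Trim Galore (0.4.5), the aligner STAR (2.5.4b) and the quantifier RSEM (1.2.30), with DESeq2 (1.20.0) and the build dm6 also named, per the submitters' processing notes. The annotation release is not given in the sources used here. The authors deposited RSEM expected counts, TPM and isoform-weighted lengths for each gene, per the file headers. Deposited TPM is divided by a sum that includes rRNA, so it was also rescaled without rRNA. Symbols and dm6 coordinates came from Ensembl (17179 gene IDs matched directly, 197 through transcript IDs and 77 not at all), and the transcripts of all 10 enzymes matched those in the files.

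Expected counts were rounded, filtered with filterByExpr, which kept 11670 genes, and given TMM factors. The quasi-likelihood test of edgeR 4.0.16 (in R 4.3.3) then compared the groups with no other term, and a gene was called at a Benjamini-Hochberg p under 0.05. TMM factors were 1.99, 2.01 and 1.69 in RIP and 0.479, 0.608 and 0.507 in input. The length trend was removed with a lowess curve per library (span 0.3). Ratios used counts plus 0.5, and TPM was tested with limma 3.58.1 on log2(TPM + 1). The procedure was tested on simulated data without rRNA genes or differences between replicate numbers. That test therefore does not cover the rRNA difference between the groups or the distance of replicate 3. The members and lists were chosen with earlier results of these data known. The named genes are the 10 enzymes, Pglym78, Ldh and, for each list, the gene with the smallest p among those called in each direction. Other genes are named to list the calls or to give a limit, and were chosen after their values were seen.

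No 2 replicates agreed within sampling noise (chi-square 15.8 to 142 per degree of freedom). This was taken on counts of tested genes without TMM factors and with rRNA genes among them. The part of rRNA in it was not tested. The labels do not say whether replicates were separate fly collections, and the p-values cover the spread of these libraries alone, which may be technical. Deviations from the group means correlated at 0.73, 0.67 and 0.87 between RIP and input libraries of the same number, which met the limit of 0.1 for pairing by number. RIP 1 with input 2 and RIP 2 with input 1 correlated at 0.64 and 0.66, and replicate 3 with the other numbers at -0.82 to -0.71, so the correlations mostly set replicate 3 apart, and a fit with the replicate block was an alternative (common dispersion 0.0079 with the block and 0.102 without). The enzymes had 1322 to 25554 counts per library.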

Additional observations from a re-analysis of the deposited data

How the results depend on the processing

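Of 22 alternatives, library size alone and the TPM fits moved the results most. The 10 enzymes were called 1 higher and 9 lower in RIP, their median was -0.93 from that of all genes, and 2362 genes were higher and 1989 lower. Scaled by library size alone, 8 enzymes were higher and 0 lower (9386 and 173 genes), with an enzyme median of 0.96 and log2 fold changes of 1.32 for Pgi, 1.52 for Pfk, 1.18 for Ald1, 0.13 for Tpi, 0.54 for Gapdh1, 0.28 for Gapdh2, 0.94 for Pgk, 0.67 for Eno, 0.98 for PyK, 0.86 for Idh, 0.83 for AGBE and 0.63 for Ldh. On log2(TPM + 1) as deposited (limma), 10 enzymes were higher and 0 lower (11296 and 25 genes), with a median of 2.48, which was -0.059 from that of all genes, and values of 2.84 for Pgi, 2.98 for Pfk, 2.497 for Ald1, 1.68 for Tpi, 2.13 for Gapdh1, 1.87 for Gapdh2, 2.47 for Pgk, 2.18 for Eno, 2.53 for PyK, 1.22 for Pglym78, 0.96 for SdhC, 2.36 for Idh, 2.27 for AGBE and 1.43 for Ldh. On TPM rescaled without rRNA, 6 enzymes were higher and 1, Tpi, lower. With 1 added, 8066 genes were higher and 318 lower, the enzyme median was 0.47, which was -0.71 from that of all genes, and values were 0.84 for Pgi, 1.01 for Pfk, 0.47 for Ald1, 0.11 for Gapdh1, 0.47 for Pgk, 0.15 for Eno, 0.51 for PyK, 0.37 for Idh, 0.37 for AGBE and 0.13 for Ldh. With 0.1 added, 8001 were higher and 317 lower, the enzyme median was 0.47, which was -0.92 from that of all genes, and values were 0.85 for Pgi, 1.02 for Pfk, 0.47 for Ald1, 0.11 for Gapdh1, 0.48 for Pgk, 0.15 for Eno, 0.51 for PyK, 0.37 for Idh, 0.37 for AGBE and 0.16 for Ldh. The TPM fits changed the test and the unit together, and the cause of these shifts was not tested. The median of all genes was 1.90, 2.54, 1.18 and 1.39 in these 4 settings. With rRNA in the total, the enzymes' share of all counts was 0.153 percentage points higher in RIP. Relative to the geometric mean of the 10, deposited TPM gave -0.032 for Ald1 and 0.0107 for PyK.

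Leaving rRNA genes out gave 1825 higher and 2488 lower. Removing the length trend left 1249 genes higher and 1223 lower and 0 enzymes higher. A mean CPM of at least 5 put the enzyme median -1.13 from that of all genes. The replicate block called 3821 genes higher and 3229 lower, and with rRNA left out 3933 lower, and changed no enzyme call. Without both replicate 3 libraries 3498 genes were lower. Leaving out each library in turn gave 0 to 1 enzymes higher, 7 to 9 lower, 1593 to 2608 genes higher, 1409 to 2361 lower and a median -1.07 to -0.77 from that of all genes. Ald1 was also not called with RLE scaling (edgeR adjusted p = 0.0648) or no filter (0.0666), nor Pfk with no filter (0.126). On rescaled TPM with 1 added, Gapdh2 (limma adjusted p = 0.53), Gapdh1 (0.428) and Eno (0.202) were not called. With library size alone, Tpi (edgeR adjusted p = 0.475) and Gapdh2 (0.240) were not called. Where no construction is named, the cause was not tested. With 3 libraries a group, the exact tests could not reach 0.05.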
